A study of Sus scrofa with 36 samples.

Results

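The 10 genes described here encode chaperones and folding enzymes of the endoplasmic reticulum (ER), and they were followed in the thyroid gland of 36 castrated growing pigs, with 1 pig per array. The genes were HSPA5, DNAJB11, MANF, HSP90B1, PDIA4, PDIA6, CALR, HYOU1, SDF2L1 and CRELD2, out of 11824 named genes on the array, of which 10539 were tested. They were chosen from earlier results of the heat contrast of these same arrays, so their changes with heat are given as a description, while the breed contrasts and the covariation between pigs were not used for that choice. Their probes are those whose gene name or bracketed symbol in the scanner files equals a member, which gave 35 probes of 9 genes. PDIA4 had none by that rule, and it is described by 1 probe that the RefSeq gene table (assembly Sscrofa11.1) ties to it through its gene number.

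The pigs were Creole (CR), Large White (LW) or the cross of both (F1), and each breed was sampled at labelled temperatures of 24 and 30 °C, which makes 6 groups of 6 pigs. According to the protocol text the warm room was at 32 °C and the warm phase lasted 5 days. Per the methods, some of the hot pigs were slaughtered before the full 5 days, and the labels do not say which. The labelled 30 °C names the groups here. All pigs entered the climatic room at 11 weeks of age and were first kept at 24 °C. The 24 °C pigs were slaughtered before the rise and the 30 °C pigs after it, so that temperature cannot be told apart from age and day of slaughter. Each breed was represented by a few litters, and pen, slaughter day, sire and dam are not in the labels. Breed therefore cannot be told apart from family, and the p-values treat littermates as independent pigs.

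Proteins that leave the cell are folded in the ER. HSPA5 (BiP) binds unfolded chains there, helped by cochaperones, while calreticulin (CALR) holds glycoproteins through their sugars and the protein disulfide isomerases form and rearrange disulfide bonds. When unfolded protein builds up, the unfolded protein response raises transcription of these helpers through ATF6, XBP1 and ATF4. The thyroid follicular cell depends on this machinery because thyroglobulin (TG), the large secreted precursor of thyroid hormone, is both glycosylated and rich in disulfide bonds.

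The probes are 60 bases long, and a gene was read by the one with the highest mean signal among its tested probes (its brightest probe). In 3 members that probe held the letters AATAAA or ATTAAA, which can form a polyadenylation signal where they lie near the end of a transcript. They are printed in capitals in windows of 30 bases, and their place in the transcript was not determined. Such letters occur in 14.1% of all probes of the array, searched on the printed strand alone, and in 8 of the 35 member probes. A match is a description of the letters only.
HSPA5 brightest probe: ccataagtgacaccAATAAAtgtttgttat
DNAJB11 brightest probe: gatattaagagtgAATAAAattggactttg
CALR brightest probe: aagaactacaaacgaaatttcgtATTAAAt
HSPA5 was also read by a probe whose letters run without a stop codon in 2 forward reading frames, and which was not found to overlap the brightest one. Where it lies in the transcript was not determined. It is printed in full.
HSPA5 probe 3: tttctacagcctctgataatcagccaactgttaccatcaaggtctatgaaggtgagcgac
Some member probes lie on opposite strands. Of the 10 HSP90B1 probes, 2 share 39 bases on opposite strands, printed in capitals. They are shown because the second reads the strand opposite to the first.
HSP90B1 probe 9: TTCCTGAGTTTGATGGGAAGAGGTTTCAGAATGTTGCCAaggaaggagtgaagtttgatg
HSP90B1 probe 10: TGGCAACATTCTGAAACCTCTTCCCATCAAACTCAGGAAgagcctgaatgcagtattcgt
One SDF2L1 probe likewise overlaps another on the opposite strand by 42 bases. It was well above background on 7 arrays and was not tested, which left 34 tested member probes of the rule. HYOU1 carries an identical sequence on 2 spots, both dim, with a mean log2 intensity of 5.88 and 5.71.
HYOU1 probes 2 and 3: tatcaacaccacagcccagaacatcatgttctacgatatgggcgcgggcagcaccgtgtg
DNAJB11 also holds a pair of identical probes. The identical pairs and the opposite-strand probes are not separate readings of a gene, and 31 distinct tested sense sequences remained without them. Some of these 31 still overlap in part on the same strand. The overlap is 49 bases for HSPA5 probes 1 and 2, 52 for SDF2L1 probes 2 and 3 and 37 for SDF2L1 probes 4 and 5. SDF2L1 probes 1 and 4 share 23 bases, and HSP90B1 probes 3 and 7 share 16.

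Between 72.8% and 80.3% of the spots of an array were well above background, and the arrays lay on 5 slides. Among the markers of thyroid follicular cells, TG (mean log2 intensity 18.8), SLC5A5 (16.72), DUOX2 (14.38) and FOXE1 (12.99) were tested, whereas PAX8 had no named probe and SLC26A4 and DIO1 did not pass the filter on dim probes. The parathyroid markers PTH (6.01) and CASR (5.88) were dim. The pigs CR 30 °C replicate 3 and F1 24 °C replicate 4 lay nearest to another breed in their expression, and results are also given without them. Replicate numbers follow the order of the records and only name a pig.

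The first comparison asked whether the members differed between LW and CR pigs, with temperature in the model. All 10 genes had a lower level in LW than in CR pigs by their brightest probe, and 8 of the 10 passed the test. Over probes, limma called 27 of the 34 tested probes of the rule lower in LW (79.4%) and 0 higher. Of all 46222 tested probes, 5.73% were called lower. At an unadjusted p under 0.05 there were 31 member probes, all lower, against 26.2% of all tested probes in either direction. The log2 difference had a median of -0.34 over the member probes, with a range of -0.70 to -0.05 and all 34 below 0, while the median over all named genes was 0.00. Among the 3117 named genes at least as bright as the dimmest member (log2 intensity 11.36), 6.74% were called lower. Without CR 30 °C replicate 3 and F1 24 °C replicate 4, 30 of the 34 member probes were called. In whole tissue, fewer cells of a type and less RNA per cell cannot be told apart.

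**Figure D1:**
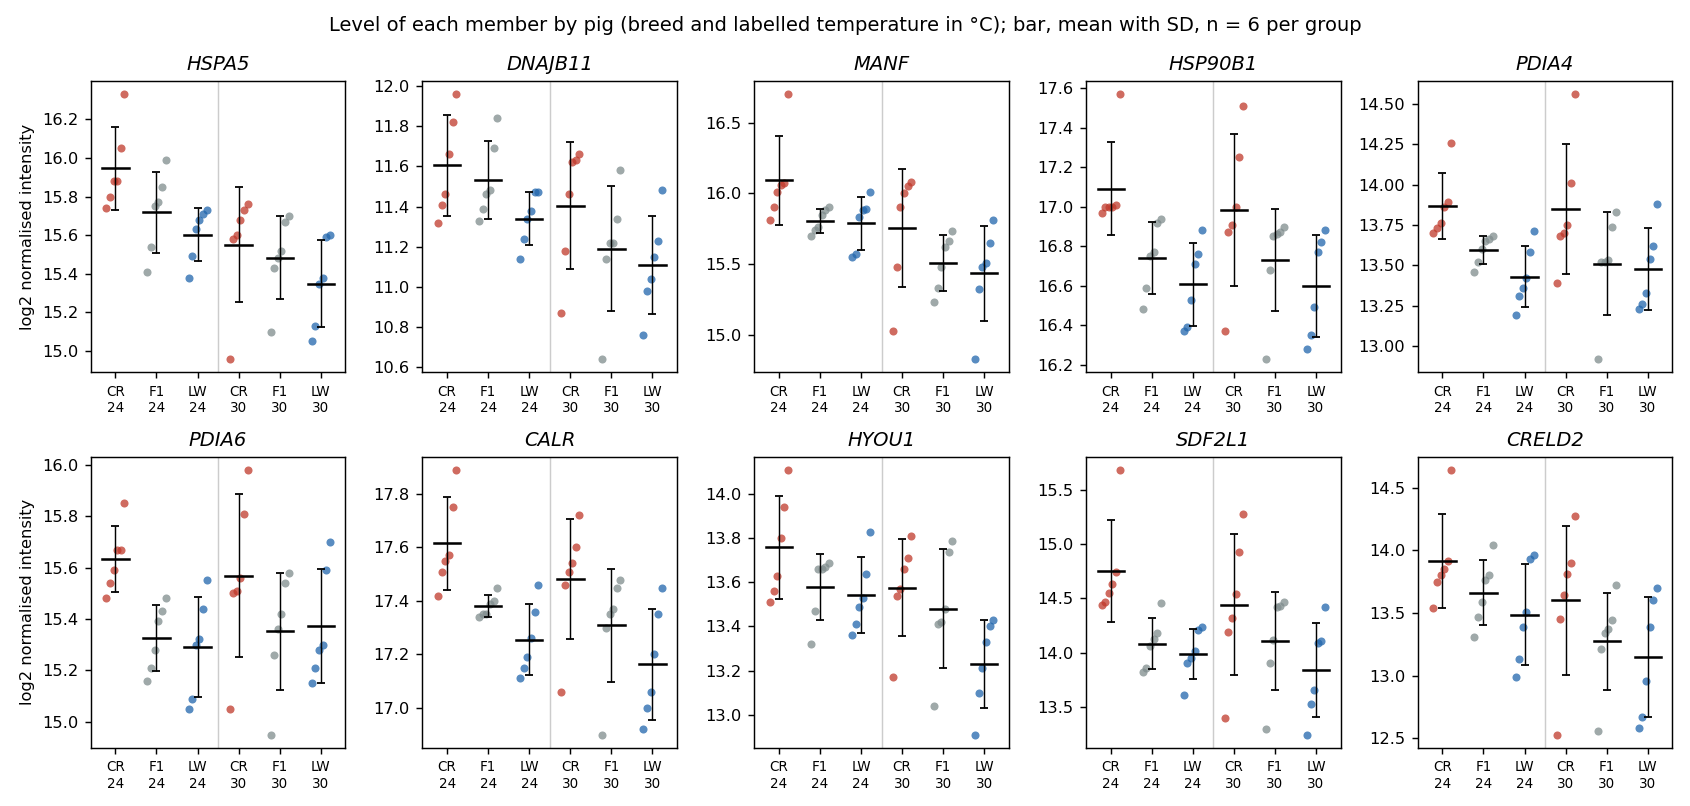
Log2 normalised intensity (vertical axes, each on its own range) of the brightest probe of each member in every pig, by breed and labelled temperature, with bars for the mean and SD of the 6 pigs. In every panel the CR 24 °C mean is the highest of the 6, and for 8 of the 10 genes the LW 30 °C mean is the lowest.

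SDF2L1, a small ER protein that works with HSPA5 and its J-domain partners, showed the widest breed difference among the brightest probes. At 24 °C its log2 intensity was 14.44 at the lowest, 14.59 at the median and 15.68 at the highest in CR pigs, and 13.61, 13.99 and 14.24 in LW pigs, so that all 6 LW pigs lay below every CR pig. The share of all tested probes that separate these groups in this way was not determined. Such separation, here and in the members below, is therefore a description only. At 30 °C the CR pigs ran from 13.40 over 14.43 to 15.28 and the LW pigs from 13.25 over 13.87 to 14.42, and the groups overlapped. The difference of LW against CR was -0.68 (SE 0.17, limma adjusted p 0.0054), a level 37.6% lower. All 5 tested SDF2L1 probes were called, with differences of -0.70 to -0.62, but each of them overlaps another of the 5 in part.

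HSPA5, the central HSP70 chaperone of the ER, had log2 intensities from 15.74 over 15.88 to 16.33 in the CR pigs at 24 °C and from 15.38 over 15.66 to 15.73 in the LW pigs. These 2 groups did not overlap. At 30 °C the CR pigs ran from 14.96 over 15.64 to 15.76 and the LW pigs from 15.05 over 15.36 to 15.60. The lowest CR value there belonged to replicate 3, the CR pig that lay nearest to the F1 pigs in its expression. HSPA5 was lower in LW by 17.1% (log2 difference -0.27, SE 0.088, limma adjusted p 0.0353). Of its 3 probes 2 were called, and these share 49 bases on the same strand. Probe 3, which was not found to overlap them, differed by -0.22 (limma adjusted p 0.16) and was not called. The call of the brightest probe was lost when any of 9 single pigs was left out.

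DNAJB11, a J-domain cochaperone that brings substrates to HSPA5, differed by -0.28 (SE 0.097, limma adjusted p 0.0516) and so missed the threshold by its brightest probe, with a 95% interval of -0.48 to -0.08. Of its 4 probes, 1 was called and all 4 had a negative difference. HYOU1, the nucleotide exchange factor that resets HSPA5, differed by -0.28 (SE 0.084, limma adjusted p 0.0224). Its 2 dim probes, with the identical sequence shown above, differed by -0.11 and -0.05 and were not called. With the mean of all 3 HYOU1 probes in place of the brightest one, the difference was -0.15 and the call was lost (limma adjusted p 0.15).

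HSP90B1 (GRP94), the HSP90 of the ER, was lower in LW on every probe, sense or antisense. In the 24 °C pigs its log2 intensity ran from 16.97 over 17.00 to 17.57 in CR and from 16.37 over 16.62 to 16.88 in LW, and here too the groups did not overlap. At 30 °C the values were 16.37, 16.95 and 17.51 in CR and 16.28, 16.63 and 16.88 in LW, with overlap. The difference was -0.43 (SE 0.10, limma adjusted p 0.0034), which is a level 26% lower. All 10 probes were called, with differences between -0.48 and -0.29, and the value nearest to 0 was that of the opposite-strand probe.

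CALR, the calcium-binding lectin chaperone, had the smallest adjusted p of the 10 brightest probes. It ran from 17.42 over 17.56 to 17.89 in the CR and from 17.11 over 17.23 to 17.46 in the LW pigs at 24 °C, with 5 of the 6 LW pigs below every CR pig. At 30 °C it ran from 17.06 over 17.52 to 17.72 in CR and from 16.92 over 17.13 to 17.45 in LW. The difference was -0.34 (SE 0.07, limma adjusted p 0.000966), a level 21.0% lower. All 3 CALR probes were called, and the middle one in brightness differed by -0.62.

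The protein disulfide isomerases followed the same direction. PDIA4 was lower in LW by 24.5% (log2 difference -0.40, SE 0.10, limma adjusted p 0.00599). PDIA6 differed by -0.27 (SE 0.084, limma adjusted p 0.0288), and its second probe by the same amount, although leaving out any of 5 single pigs ended the call of the brightest one. In 11 of the 12 LW pigs PDIA4 lay below the median of the CR pigs of the same temperature, and PDIA6 did so in 10 of 12.

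MANF and CRELD2 are small ER proteins, of which MANF is also a secreted trophic factor that binds HSPA5. MANF differed by -0.31 (SE 0.11, limma adjusted p 0.0491) and both its probes were called, with adjusted p of 0.0491 each. That call was fragile, since it was lost without any of 26 of the 36 pigs. CRELD2, a disulfide-rich protein, differed by -0.44 (SE 0.16, limma adjusted p 0.0704) on its brightest probe and was not called there, whereas its second probe differed by -0.67 (SE 0.16, limma adjusted p 0.00518). By the mean of both probes the difference was -0.55 with an adjusted p of 0.0177.

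**Figure D2:**
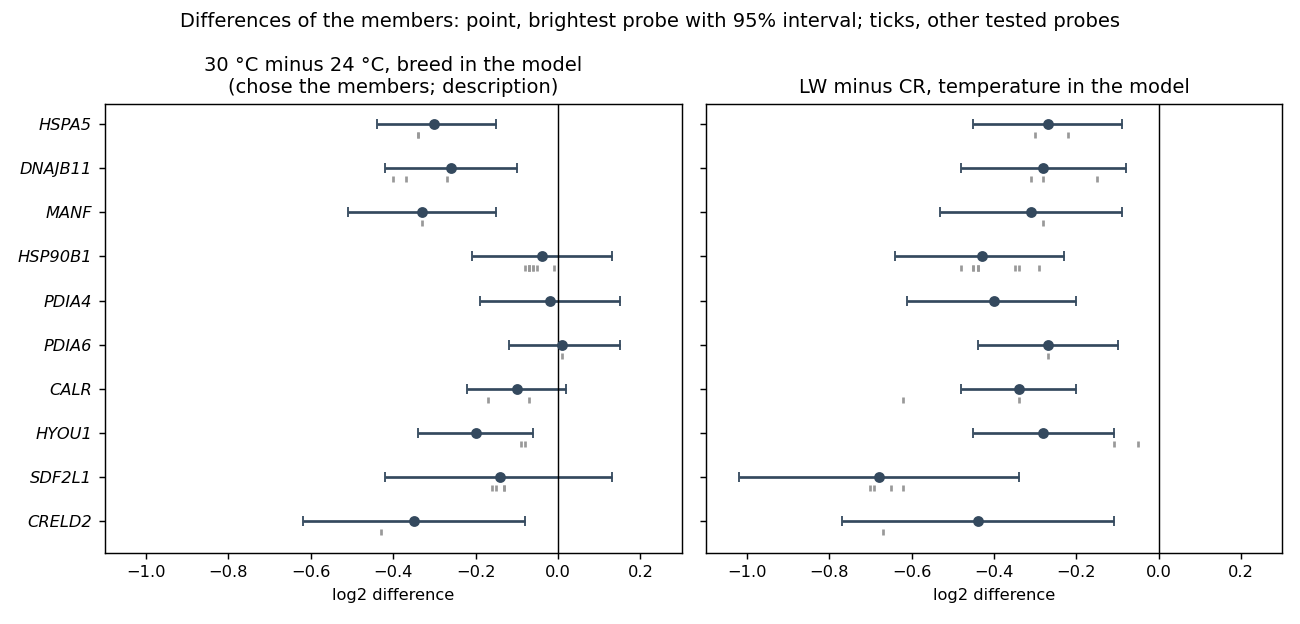
Log2 difference (horizontal axis) of each member for 30 against 24 °C (left, the contrast that chose the members) and for LW against CR (right); points are the brightest probe with its 95% interval and ticks the other tested probes. All intervals on the right lie below 0, whereas on the left those of HSP90B1, PDIA4, PDIA6, CALR and SDF2L1 cross 0.

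The breed difference was negative at both temperatures for all 10 brightest probes. Within the 24 °C pigs the 10 differences of LW against CR ran from -0.76 (SDF2L1) to -0.21 (HYOU1), and within the 30 °C pigs from -0.60 (SDF2L1) to -0.19 (PDIA6). Within genes the values differed, as in HSPA5 with -0.34 and -0.20 and in HYOU1 with -0.21 and -0.35. With 6 pigs a group limma called 4 of the 34 probes lower at 24 °C and 0 at 30 °C, against 1.74% and 1.64% of all tested probes. At an unadjusted p under 0.05 there were 25 and 25 member probes, all lower in LW, against 16.9% and 17.1% of all probes in either direction. Within slides, after the heat term was subtracted, all 10 genes were lower in LW on slides 1, 2 and 4, 8 of 10 on slide 3 and 9 of 10 on slide 5, which held 1 CR and 2 LW pigs. CR 24 °C replicate 2 was far above the other 5 CR pigs of that temperature in 5 members, and without it 20 of the 34 probes were called.

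The mean of the F1 pigs, with temperature in the model, lay between those of the parent breeds for all 10 genes, closest to LW for PDIA6 and MANF and near the middle for HSPA5, DNAJB11 and HYOU1. Against CR the differences of F1 ran from -0.50 (SDF2L1, SE 0.17) to -0.14 (DNAJB11 and HYOU1). At an unadjusted limma p under 0.05 there were 19 of the 34 probes, all lower, against 17.2% of all probes in either direction. limma called 2 of the 34 probes lower, 1 of HSP90B1 (-0.34, adjusted p 0.0429) and 1 of SDF2L1 (-0.54, adjusted p 0.047), against 1.67% of all probes. Without CR 30 °C replicate 3 that count was 15, and without F1 30 °C replicate 5 it was 4. Without CR 30 °C replicate 3 and F1 24 °C replicate 4 together it was 12. Leaving out any 1 of 13 other pigs gave 0, and any 1 of 14 gave 1. Against LW, limma called 0 of the 34 member probes, where 1.99% of all probes were called. At an unadjusted p under 0.05 there were 4 member probes, all higher in F1, against 13.4% of all probes in either direction. The difference of F1 from LW had 95% intervals of -0.05 to 0.30 for HSPA5 and -0.07 to 0.34 for HSP90B1.

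Set against the mean of CR and LW, F1 differed by -0.16 (SDF2L1) to 0.00 (HYOU1). limma called 0 of 34 probes in this contrast, where 0.439% of all probes were called. At an unadjusted p under 0.05 there were 0 member probes, against 10.4% of all probes. The 95% interval was -0.17 to 0.14 for HSPA5, -0.16 to 0.09 for CALR and -0.45 to 0.13 for SDF2L1. The shared parent groups mean that the contrasts of F1 are not independent of that of LW against CR.

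With heat, the contrast that chose the genes, the members fell into unequal sizes of change. HSPA5, DNAJB11, MANF and CRELD2 had the largest negative values, HYOU1, SDF2L1 and CALR smaller ones, and HSP90B1, PDIA4 and PDIA6 values near 0. Of the 34 probes, limma called 6 lower in the 30 °C pigs, which were the 3 of HSPA5, the identical pair of DNAJB11 and 1 of MANF, and 0 higher, with 12 at an unadjusted p under 0.05, all lower. In all tested probes 0.876% were called lower and 9.74% had an unadjusted p under 0.05 in either direction. Nothing is read from the members' counts because the contrast chose them.

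HSPA5 changed by -0.30 (SE 0.072) on its brightest probe and by -0.34 on each of the others. Each of the 18 pigs at 30 °C was below the 24 °C median for its own breed, and the change was -0.40 in CR, -0.24 in F1 and -0.26 in LW pigs. In the F1 pigs the log2 intensity ran from 15.41 over 15.76 to 15.99 at 24 °C and from 15.10 over 15.50 to 15.70 at 30 °C, so the groups overlapped, as they did in the other breeds.

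DNAJB11 changed by -0.26 (SE 0.079) and by -0.40 to -0.27 on its 3 other probes. MANF changed by -0.33 (SE 0.088), with 16 of the 18 hot pigs below the median of their breed, and both probes had that value. CRELD2 changed by -0.35 (SE 0.13), with 13 of 18 below, and by -0.43 on its second probe. HYOU1 stood at -0.20 (SE 0.069), with 15 of 18 below. The 4 genes HSPA5, DNAJB11, MANF and CRELD2 had negative changes in each of the 3 breeds, from -0.40 to -0.20. So did HYOU1 (-0.31 to -0.10), CALR (-0.13 to -0.08) and HSP90B1 (-0.11 to -0.01), with values closer to none.

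HSP90B1 changed by -0.04 (SE 0.083), with all 10 probes between -0.08 and -0.01, and 9 of the 18 hot pigs lay below the median of their breed. PDIA4 changed by -0.02 (SE 0.082) and PDIA6 by 0.01 (SE 0.068), with 95% intervals of -0.19 to 0.15 and -0.12 to 0.15. CALR changed by -0.10 (SE 0.057) and SDF2L1 by -0.14 (SE 0.14). HSP90B1, with a breed difference of -0.43, and PDIA4, with -0.40, were thus near 0 with heat, while HSPA5 had values of -0.30 and -0.27 in the 2 contrasts.

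On slide 2 the HSPA5 change, after the breed terms were subtracted, was -0.12 and that of HSP90B1 0.14, whereas on the other slides HSPA5 stood between -0.48 and -0.24 and HSP90B1 between -0.20 and -0.02. Whether the heat change itself differed between breeds was tested as the interaction of breed and temperature, which the choice of genes did not use. limma called 0 of the 34 member probes and 0.0% of all tested probes. At an unadjusted p under 0.05 there were 0 member probes, against 4.67% of all tested probes. Unadjusted, the member p-values ran down to 0.187 at the lowest.

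The CR 24 °C pigs carried the highest mean of all 6 groups for each of the 10 genes. The LW 30 °C pigs carried the lowest mean for 8 of them, and the LW 24 °C pigs for PDIA4 and PDIA6. The mean of CR 24 °C over that of LW 30 °C was 1.88-fold for SDF2L1, 1.70-fold for CRELD2, 1.58-fold for MANF and 1.51-fold for HSPA5, and 1.20-fold for PDIA6. These folds combine the breed and the heat difference, of which heat chose the genes, and were not tested.

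Genes of the same pathway outside the 10 were described from fixed lists. Of 27 tested further folding genes, 7 were called lower in LW than in CR pigs and 2 higher, with a median difference of -0.07. The lower ones were the disulfide isomerases PDIA3 (-0.30, limma adjusted p 0.00802) and P4HB (-0.22, 0.00452), the cyclophilin PPIB (-0.32, 0.0022), the immunophilin FKBP2 (-0.23, 0.00789), the HSPA5 cochaperone DNAJC3 (-0.35, 0.00103), ERP29 (-0.17, 0.0222) and the oxidase ERO1A (-0.17, 0.0386). Higher were the collagen-folding immunophilin FKBP14 (0.25, limma adjusted p 0.0213) and SDF2 (0.20, 0.0322), the paralogue of SDF2L1. In all named genes 6.03% were called lower and 7.38% higher.

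Of 26 tested genes of translocation and degradation, 9 had an unadjusted limma p under 0.05, against 26.2% of all tested probes. limma called 5 lower in LW and 0 higher, with a median of -0.07. They were DERL3 (-0.47, limma adjusted p 0.00482) and HERPUD1 (-0.35, 0.00126) and SEL1L (-0.30, 0.0135), which serve the removal of misfolded proteins, and SEC11C (-0.21, 0.00963) and SPCS2 (-0.14, 0.0483), which are subunits of the signal peptidase. Among 11 tested sensors and factors of the unfolded protein response 2 were called, both lower, and 6 of the 11 differences were negative. At an unadjusted limma p under 0.05 there were 5, of which 3 were lower, against 26.2% of all tested probes in either direction. ASNS differed by 0.28 (SE 0.12, limma adjusted p 0.13) and MBTPS1 by 0.10 (SE 0.049, adjusted p 0.172), both higher and not called. ATF6, the membrane-bound factor that is cut on stress and then drives chaperone genes, differed by -0.40 (SE 0.084, limma adjusted p 0.00135) and DDIT3 (CHOP) by -0.30 (SE 0.072, adjusted p 0.00368). XBP1 differed by -0.09 (SE 0.068, adjusted p 0.433) and ATF4 by -0.11 (SE 0.063, adjusted p 0.248).

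In the heat contrast limma called 0 genes of the 3 pathway lists. Of their 27, 26 and 11 tested genes, 2, 3 and 2 had an unadjusted p under 0.05, where 9.74% of all tested probes had one. Their medians were 0.02, -0.01 and -0.03 against 0.01 over all named genes, and the most negative values were those of ASNS (-0.22, SE 0.099), CRELD1 (-0.16, SE 0.064) and HERPUD1 (-0.16, SE 0.061). XBP1 and ATF6 stood at 0.00 and 0.05.

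**Figure D3:**
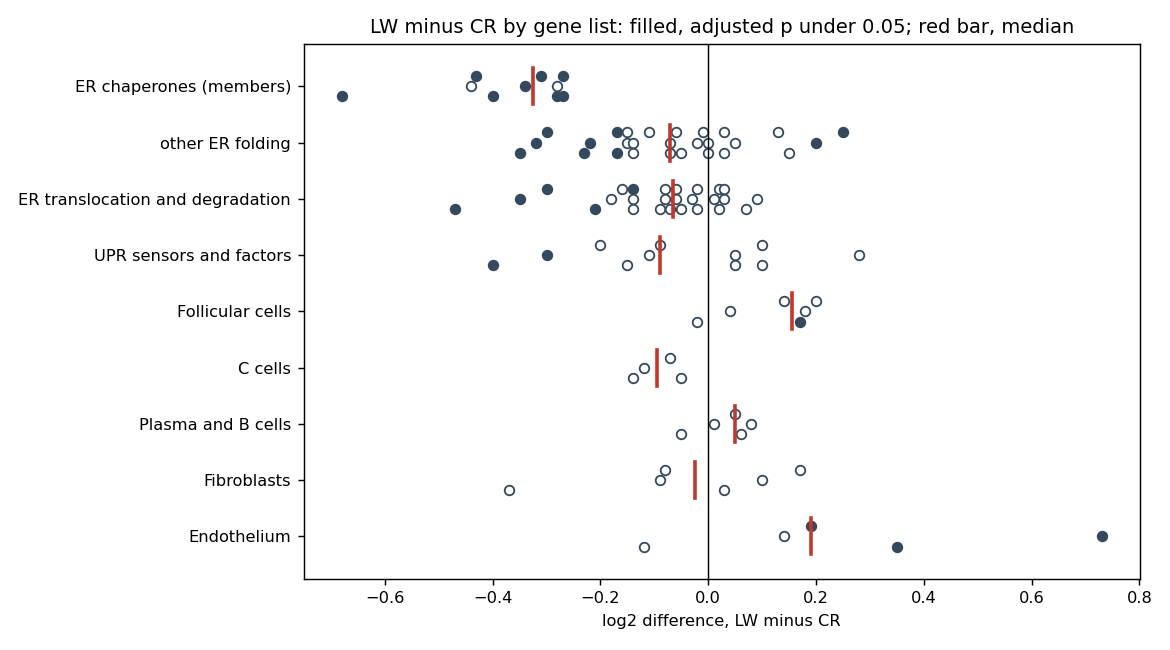
Log2 difference of LW against CR (horizontal axis) for the brightest probe of each tested gene, by gene list, with filled points at an adjusted p under 0.05 and a red bar at the median. The median of the ER chaperones is -0.33 and those of the 3 other ER lists -0.07, -0.07 and -0.09. Those of the follicular and endothelial markers are 0.16 and 0.19, with DUOX2 and VWF below 0.

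Markers of cell types moved with breed in part. Of the endothelial markers 3 of 5 were called higher in LW, KDR (0.73, limma adjusted p 4.39e-06), PECAM1 (0.35, 0.00588) and CDH5 (0.19, 0.0347). TEK (0.14, limma adjusted p 0.237) and VWF (-0.12, 0.545) were not called, and VWF had the other sign. The summed linear intensity of the list ran from 22500 to 33500 in CR and from 27700 to 38700 in LW pigs. Such a sum is set mainly by the brightest genes of its list. These are TG (mean log2 intensity 18.8) among the follicular and CHGA (15.77) among the C cell markers, so dimmer genes hardly show in it. Of 6 tested follicular markers NKX2-1 was called higher in LW (0.17, limma adjusted p 0.0307), and TG differed by 0.18 (SE 0.11, adjusted p 0.276), with a summed intensity of the list of 391000 to 810000 in CR and 501000 to 765000 in LW. The plasma and B cell markers, a cell type rich in ER, were all dim, with 0 of 5 called by limma, 0 at an unadjusted p under 0.05, and sums of 511 to 713 in CR and 485 to 730 in LW, while JCHAIN, MZB1 and TNFRSF17 had no named probe. Among C cell markers limma called 0 of 4 and among fibroblast markers 0 of 6, with 0 and 0 at an unadjusted p under 0.05, and CALCA had no named probe. The fibroblast list had a median heat change of -0.28 with 0 genes called and 2 at an unadjusted p under 0.05, and its sum ran from 50000 to 159000 at 24 °C and from 47800 to 181000 at 30 °C. For F1 against CR, limma called 1 of the 5 endothelial markers, KDR (0.51, adjusted p 0.00256), with sums of 26400 to 35400 in F1. The parathyroid marker PTH differed by 1.20 (adjusted p 0.0689), with 0 of 2 called and sums of 91.1 to 797 in F1 against 86.9 to 130 in CR. The C cell list had 0 of 4 called and 2 at an unadjusted p under 0.05, CHGB (0.73) and SCG2 (0.66), both higher in F1, with sums of 54000 to 74600 in F1 and 49600 to 90500 in CR. The part of these markers in the breed and heat differences of the chaperones was not tested.

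The last comparison asked whether pigs of the same breed and temperature that were high in HSPA5 were also high in the other members. Over the deviations of the 36 pigs from their group means, HSPA5 correlated with each of the 9 other genes. CRELD2 and HSP90B1 had the highest values, with Pearson r of 0.83 each (Spearman rho 0.76 and 0.77), followed by MANF (0.80), HYOU1 (0.78), SDF2L1 (0.77), CALR (0.72), DNAJB11 (0.69), PDIA4 (0.68) and PDIA6 (0.68). The permutation test within groups, 2-sided with 100000 resamples and adjusted over the 9 relations, gave 3e-05 for CRELD2, HSP90B1 and MANF, from a raw p of 1e-05 that is the smallest it can give. The other adjusted p reached up to 0.00016 for r and 0.001 for rho (DNAJB11, raw p 0.001).

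The arrays are shared by all genes, so r was also taken with all other 10528 named genes. There its median was 0.03 and its highest 1% began at 0.55. By descending r, CRELD2, HSP90B1, MANF, HYOU1, SDF2L1 and CALR held ranks 1 to 6, DNAJB11 rank 9, PDIA4 rank 13 and PDIA6 rank 16. Without the 2 pigs farthest from the HSPA5 median (CR 30 °C replicate 3 and CR 24 °C replicate 2) r lay between 0.53 (PDIA6) and 0.73 (CRELD2 and HSP90B1). With slide means removed it lay between 0.65 and 0.82, within the 24 °C pigs between 0.56 and 0.83, and within the 30 °C pigs between 0.67 and 0.85. HSP90B1, PDIA4 and PDIA6, whose means hardly moved with heat, thus varied with HSPA5 from pig to pig at each temperature.

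**Figure D4:**
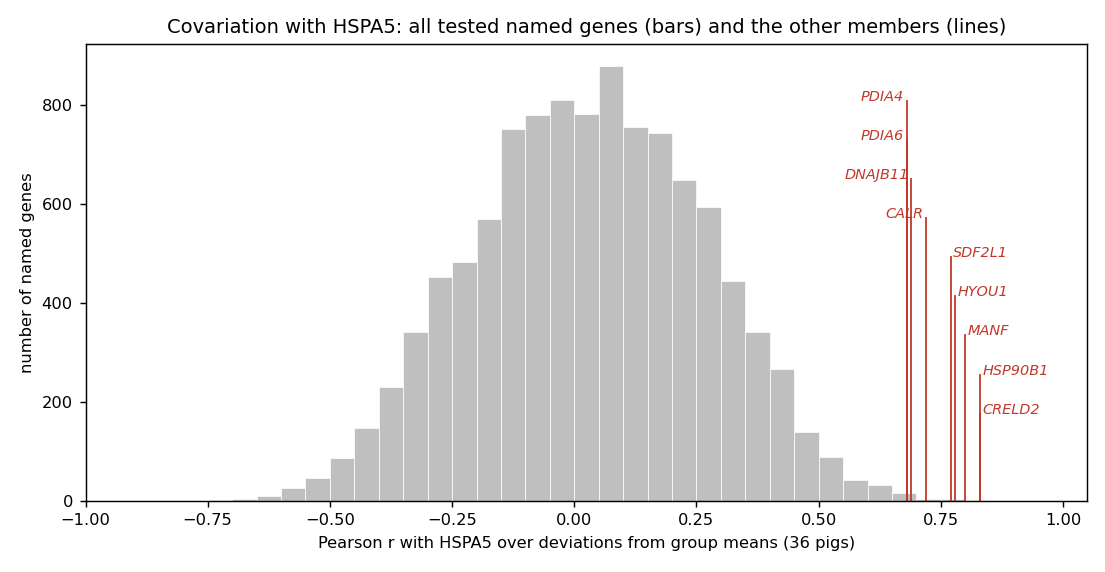
Number of named genes (vertical axis) by their Pearson r with HSPA5 over deviations from group means in 36 pigs (horizontal axis), with red lines for the 9 other members. The lines stand between 0.68 and 0.83, beyond the 0.55 at which the highest 1% of genes begins.

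Between all 45 pairs of members r ran from 0.47 (MANF with PDIA6) to 0.94 (HSP90B1 with SDF2L1), with a median of 0.77. CRELD2 followed HSP90B1 (0.93) and SDF2L1 (0.90) more closely in value than HSPA5 (0.83), a difference that was not tested. The 5 genes outside the set with the highest r with HSPA5 were DERL3 (0.71), FKBP2 (0.71), ATP6V1C2 (0.69), PCLAF (0.68) and PLOD3 (0.68). DERL3, of ER-associated degradation, and FKBP2 belong to the pathway lists, PLOD3 encodes a collagen hydroxylase of the ER, ATP6V1C2 a subunit of the proton pump and PCLAF a protein of DNA replication. As lists, genes of translocation and degradation had a median r of 0.35, further folding genes 0.21, sensors and factors 0.00 and follicular markers 0.10. These are descriptions across genes that share the same arrays.

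**Figure D5:**
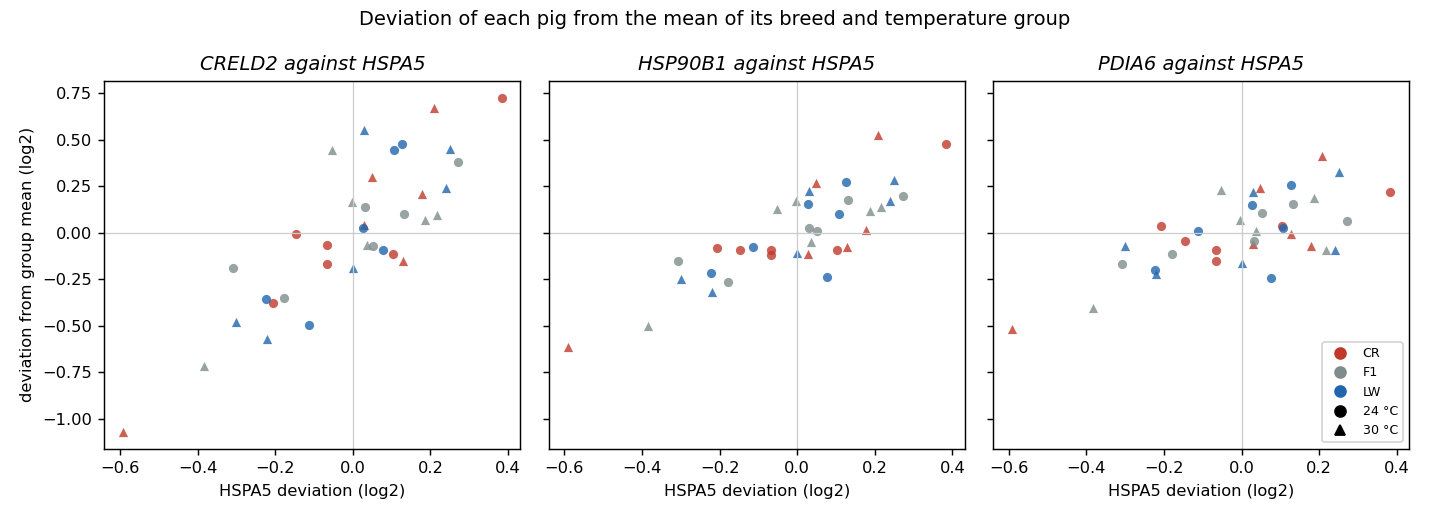
Deviation of each pig from its group mean in log2 units, for CRELD2, HSP90B1 and PDIA6 (vertical axis) against HSPA5 (horizontal axis), coloured by breed and shaped by temperature. The r values are 0.83, 0.83 and 0.68, and a CR 30 °C pig, replicate 3, lies lowest in HSPA5.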

How the data were processed

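Cy3-labelled thyroid RNA of 36 pigs was hybridized to 1-colour Agilent porcine arrays. Per the file headers, the scanner files hold the median and mean pixel intensity, the background intensity and a processed intensity, extracted with Agilent Feature Extraction 10.10.1.1, with flags for spots. The authors quantile-normalised the median intensity and deposited log2 values for 46097 probes. Here the same normalisation was rerun on 60305 probes (106 non-uniform spots set to missing, 0 spots saturated), which differed from the deposited log2 values by a median of 0.00556. Tested were the 46222 probes that the scanner software marked as well above background in 5 or more pigs of any 1 group. limma 3.58.1 in R 4.3.3 fitted breed and temperature over all 36 arrays, with Benjamini-Hochberg adjustment over all tested probes at 0.05, 2-sided, and 6 group means for the interaction and within-group contrasts. The methods' random terms are not in the labels. Permutations used NumPy 2.4.6. The fits and permutations were tested on simulated data. Arrays have no depth, so precision is set by the number of pigs and by brightness over background.

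Members, lists and tests were chosen with earlier results of these data known. Named were all members by their brightest tested probe, list genes called in a contrast or else those of largest change, and the 5 genes most like HSPA5. Genes of the array were named by symbol, gene number, older symbol or accession through the RefSeq gene table. Alternatives were other scalings, the normexp correction, the deposited values, filters, slide and position blocks, single pigs left out and the mean of all probes. Promoters and protein sequences of the members were not analysed here.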

Additional observations from a re-analysis of the deposited data

Results flagged for a closer look

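In 60 sets of 6 pigs (10 genes in 6 groups) 9 held a pig whose gap to the nearest other pig took up more of the range of its group than the 95% critical value of Dixon allows, where chance gives about 1 in 20. CR 24 °C replicate 2 stood above the other 5 CR 24 °C pigs in 5 genes, with a gap of 0.932 of the range for HSP90B1 (log2 intensity 17.57 against 16.97 to 17.01), 0.758 for SDF2L1 (15.68 against 14.44 to 14.74), 0.703 for MANF (16.70 against 15.81 to 16.07), 0.664 for PDIA4 (14.26 against 13.70 to 13.89) and 0.659 for CRELD2 (14.64 against 13.54 to 13.91). F1 30 °C replicate 2 stood below its group in 3 genes, with 0.697 for CALR (16.90 against 17.30 to 17.48), 0.672 for HSP90B1 (16.23 against 16.68 to 16.90) and 0.661 for PDIA4 (12.92 against 13.52 to 13.83). CR 30 °C replicate 3 stood below its group for HSPA5, with 0.782 (14.96 against 15.58 to 15.76). The genes covary between pigs, so these sets are not independent of each other.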

How the results depend on the processing

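The number of member probes called lower in LW than in CR was 27 and lay between 22 and 30 under the alternatives over both temperatures. It was 26 of 31 with each distinct sense sequence counted once, partly overlapping ones included. It was 30 without CR 30 °C replicate 3 and F1 24 °C replicate 4. Both of these settings were added after the data were seen. The count was 4 in the 24 °C pigs alone and 0 in the 30 °C pigs alone, groups of fewer pigs. Leaving out single pigs gave 20 to 30. For heat the count was 6, with 4 to 7 under the alternatives and 6 to 7 without single pigs. The count of F1 against CR was unstable. It was 2, and 0 with the 75th percentile of the processed or median signal, with no filter or with slide position as a block. With slide as a fixed block it was 1. Without CR 30 °C replicate 3 and F1 24 °C replicate 4 it was 12, and without single pigs 0 to 15. The 15 came without CR 30 °C replicate 3, 4 without F1 30 °C replicate 5, while leaving out any of 13 pigs gave 0 and any of 14 gave 1. The cause was not tested. The 0 calls of F1 against LW, of F1 against the mean and of the interaction stayed at 0 in all alternatives run.

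By gene, all 10 differences of LW against CR kept their sign in every alternative. The calls of HSP90B1, PDIA4, CALR, HYOU1 and SDF2L1 held without any single pig, whereas that of DNAJB11 was gained without any of 9 pigs and that of CRELD2 without any of 3. With position on the slide as a block HSPA5 (adjusted p 0.0654), MANF (0.0696) and PDIA6 (0.0659) were no longer called, nor was MANF with no filter (0.0606). DNAJB11 was called in 7 of its alternatives, with adjusted p from 0.0176 to 0.0495, and CRELD2 in 2. In the pigs of one temperature CALR at 24 °C was the only member whose brightest probe was called. The sign of the heat change was not stable for PDIA4 (-0.02 to 0.01 under the alternatives, -0.06 to 0.02 without single pigs) and PDIA6 (-0.01 to 0.04 and -0.01 to 0.05). All 9 correlations with HSPA5 held in the 7 alternatives, at 0.53 or above. No paired analysis was possible because the labels carry no replicate numbers, and those used here follow the order of the records.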
